A study of Homo sapiens with 2 samples.

Results

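The killer lectin-like receptor family was examined in NK92, an established human natural killer (NK) cell line derived from aggressive NK cell leukemia. Its 9 members (KLRB1, KLRC1, KLRC2, KLRC3, KLRC4, KLRD1, KLRF1, KLRG1 and KLRK1) were the rows of the deposited table that carry these gene symbols, 9 of 46427 genes. The comparison was between a dish exposed to PPMX-T003, an antibody against the transferrin receptor TfR1, at 10 µg/mL for 6 h and a control dish without it, both taken from cells pre-cultured for 18 h. Poly(A)-selected, stranded libraries were sequenced, 1 from the control dish (46766416 counts) and 1 from the dish with the antibody (43178462 counts). Both groups were the same line in Artemis medium with 2% human serum, with no genetic change named in the labels, and differed by the antibody. The deposited columns are named by 0 h and 6 h, whereas the methods give both dishes 6 h of further culture, so an effect of the antibody and a difference in harvest time cannot be told apart. With 1 library per condition no difference has a replicate check, and the intervals given cover counting error only. In bulk RNA, fewer cells that carry a transcript and less of it per cell cannot be told apart either.

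Most of these genes lie together in the NK gene complex and encode type II membrane proteins with a C-type lectin-like domain, through which NK cells read ligands on other cells. CD94, encoded by KLRD1, pairs with NKG2A (KLRC1) to give an inhibitory receptor for HLA-E, or with NKG2C (KLRC2) or NKG2E (KLRC3) to give activating ones that signal through DAP12, the product of TYROBP. NKG2D, encoded by KLRK1, forms a homodimer without CD94, binds stress-induced ligands of the MIC and ULBP families and signals through DAP10, the product of HCST.

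How far the KLRC genes can be told apart by reads depends on their sequences, so these come first. Coding sequences of GENCODE transcripts that match the RefSeq transcripts of the deposited table were aligned. KLRC2 and KLRC3 were identical at 96.1% of 689 aligned bases, KLRC2 and KLRC4 at 94.2% of 463, and KLRC3 and KLRC4 at 93.5%. KLRC1 stood further away, with 87.4% identity to KLRC2, 85.3% to KLRC3 and 82.5% to KLRC4. The 90-base coding window in which KLRC1, KLRC2 and KLRC3 differ least is shown to set the closest part of their aligned coding sequences, away from gaps, beside the most distant. It holds 5 differing positions and lies, on the minus strand of GRCh38, at chr12:10447543-10447632 in exon 7 of KLRC1, at chr12:10432117-10432206 in exon 5 of KLRC2 and at chr12:10416678-10416767 in exon 5 of KLRC3. Capitals mark bases that differ from KLRC1.
KLRC1: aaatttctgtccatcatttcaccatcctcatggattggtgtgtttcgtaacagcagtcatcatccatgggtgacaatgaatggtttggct
KLRC2: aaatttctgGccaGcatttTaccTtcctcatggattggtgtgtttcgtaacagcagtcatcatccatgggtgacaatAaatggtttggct
KLRC3: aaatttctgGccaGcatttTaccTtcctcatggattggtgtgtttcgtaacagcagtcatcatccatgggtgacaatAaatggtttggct
At all 5 positions KLRC2 and KLRC3 carry the same base, so that this window separates KLRC1 from both but not these 2 from each other.

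The window in which the 3 genes differ most has 23 differing positions and is shown with KLRC4, which also holds it. It lies near the 5′ end of the coding sequence, at chr12:10450973-10451062 in exon 3 of KLRC1, chr12:10435803-10435892 in exon 1 of KLRC2, chr12:10420367-10420456 in exon 1 of KLRC3 and chr12:10409392-10409481 in exon 1 of KLRC4, again on the minus strand of GRCh38.
KLRC1: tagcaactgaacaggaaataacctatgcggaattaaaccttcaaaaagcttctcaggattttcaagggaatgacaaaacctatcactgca
KLRC2: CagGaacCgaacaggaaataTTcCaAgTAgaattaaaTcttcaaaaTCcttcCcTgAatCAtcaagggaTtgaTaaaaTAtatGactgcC
KLRC3: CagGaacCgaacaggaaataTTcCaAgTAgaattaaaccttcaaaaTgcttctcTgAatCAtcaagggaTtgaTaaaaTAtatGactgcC
KLRC4: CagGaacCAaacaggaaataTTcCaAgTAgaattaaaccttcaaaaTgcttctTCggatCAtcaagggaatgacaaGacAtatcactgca
Here 23 bases of KLRC2, 20 of KLRC3 and 17 of KLRC4 differ from KLRC1.

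Over all GENCODE transcripts of each gene, every stretch of 100 bases was looked up in the transcripts of all other genes. Of the stretches of KLRC1, 96.1% occurred in no other gene and the remaining 3.94% also occurred in KLRC2. KLRC2 shared 6.35% of its stretches with KLRC1 and 1.86% with KLRC3, and KLRC3 shared 2.96% with KLRC2. A further overlap comes from AC068775.1, a GENCODE gene on the same strand that holds 22.5% of the exon bases of KLRC2 and 56.8% of those of KLRC3, and whose counts were not analysed here. At 50 bases, 11.5% of the stretches of KLRC1 were shared with KLRC2, as were 19.8% of those of KLRC3. Of the 50-base stretches of KLRC2, 19.7% were shared with KLRC1 and 13.9% with KLRC3. Sharing of exons also occurs inside the family. KLRC4-KLRK1, a readthrough gene that joins KLRC4 to KLRK1, contains 50.3% of the exon bases of KLRC4 and 62.7% of those of KLRK1, so that reads there fit both the readthrough gene and the gene inside it. KLRD1, KLRG1, KLRB1 and KLRF1 shared no stretch of 100 bases with any other gene. Counts of KLRC4, KLRK1, KLRC2 and KLRC3 are therefore uncertain as to which gene the reads came from. For KLRC2 and KLRC3 this holds in the exons that each shares with AC068775.1 and in the stretches shared with other KLRC genes. Most of KLRC1 is open to unique assignment, but how many counts of KLRC2 came from reads of KLRC1 was not tested.

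The genes of NKG2 and CD94 lie side by side on chromosome 12 (GRCh38.p14). KLRD1 is on the plus strand at chr12:10238961-10329608. On the minus strand follow KLRK1 (chr12:10372353-10390041), KLRC4 (chr12:10407384-10409757), KLRC3 (chr12:10412315-10420595), KLRC2 (chr12:10430599-10436010) and KLRC1 (chr12:10442264-10454685), and KLRC4-KLRK1 spans chr12:10372353-10410146. Levels differed widely between these neighbours, as the map of the locus shows.

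**Figure D1:**
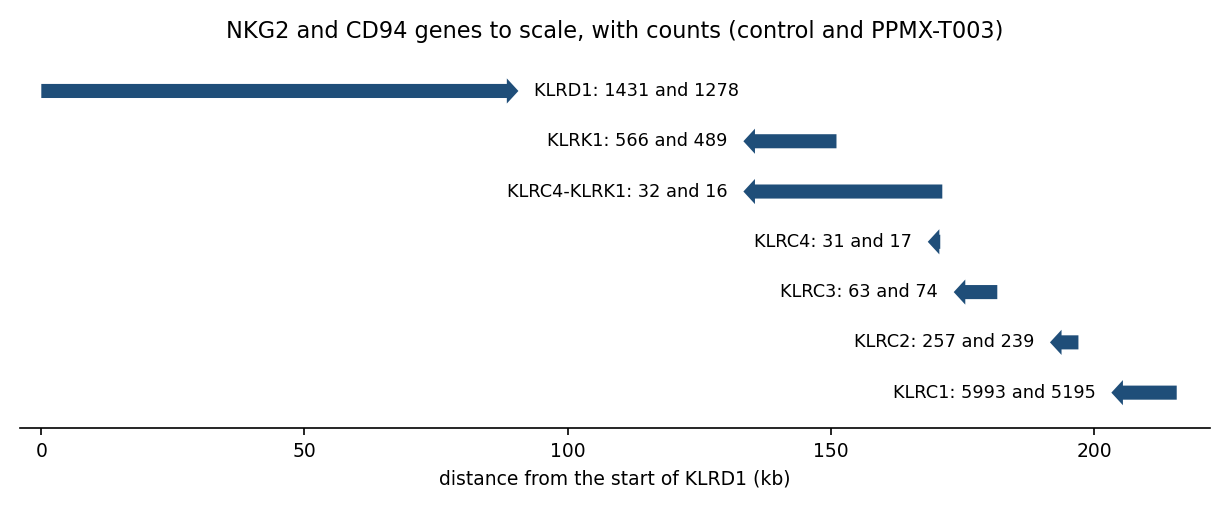
Genes drawn to scale by their distance in kb from the start of KLRD1, with arrows pointing in the direction of transcription and counts in the control and the PPMX-T003 library beside each name. KLRC1, at the far end, has 5993 and 5195 counts, and KLRC4, inside the readthrough gene, 31 and 17.

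Of the 9 members, 7 had more than 3 counts in at least 1 library, and the same 7 passed the minimum of 20 counts summed over both libraries. KLRC1 (NCBI Gene ID 3821) was the leading member, with 5993 counts in the control and 5195 in the PPMX-T003 library. It took 69.3% and 69.5% of the counts of all members. Its deposited FPKM, a level per transcript length rounded to whole numbers, was 85 and 79. Of the 11555 genes with an FPKM of at least 1 in the control library, 868 had a higher one. Of the summed counts of KLRC1, KLRC2 and KLRC3, it held 94.9% in the control library (95% Clopper-Pearson interval 94.4% to 95.5%) and 94.3% in the other (93.7% to 94.9%). These intervals take the division of shared reads among the 3 genes as given, so they leave out doubt about which gene a read came from. KLRC1 was the prevailing NKG2 transcript in both libraries.

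The activating NKG2 genes were expressed at lower levels. KLRK1 (22914) had 566 and 489 counts and an FPKM of 7 in both libraries. KLRC2 (3822) had 257 and 239 counts and an FPKM of 4 in both. KLRC3 (3823) had 63 and 74 counts, with an FPKM of 1 and 2. KLRC4 (8302), whose product NKG2F has no well-defined role, had 31 and 17 counts, with an FPKM of 1 and 0. By FPKM in the control library the order was KLRC1, KLRK1, then KLRC2 and KLRG1, which are equal at this rounding, then KLRD1, and last KLRC3 and KLRC4, again equal.

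KLRD1 (3824), the partner of NKG2A, NKG2C and NKG2E, had 1431 and 1278 counts, more than any member but KLRC1, yet its FPKM was 3 in both libraries. The place of KLRD1 in the order per length depends on the length used. Its counts and rounded FPKM in the control library correspond to a length between 8743 and 12240 nt, against 1499 to 1517 nt for KLRC1. Protein-coding transcripts of KLRD1 in GENCODE range from 446 to 15549 nt, and those of KLRC1 from 530 to 1600 nt. With the longest of these, KLRD1 in the control library was at 1.97 CPM (counts scaled to library size) per kb, with the median length at 38.1 and with the shortest at 68.6. The same 3 lengths put KLRC1 at 80.0, 93.5 and 242 CPM per kb, above KLRD1 at each.

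Outside the NKG2 and CD94 genes, KLRG1 (10219), an inhibitory receptor for cadherins, had 302 and 186 counts, with an FPKM of 4 and 2. KLRF1 (51348), which encodes the activating receptor NKp80, had 3 counts in the control and 0 in the PPMX-T003 library. KLRB1 (3820), which encodes CD161, had 0 in both, where 3 counts correspond to 0.0641 and 0.0695 CPM. Neither was detectable at this depth, and no fold change is given for them.

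**Figure D2:**
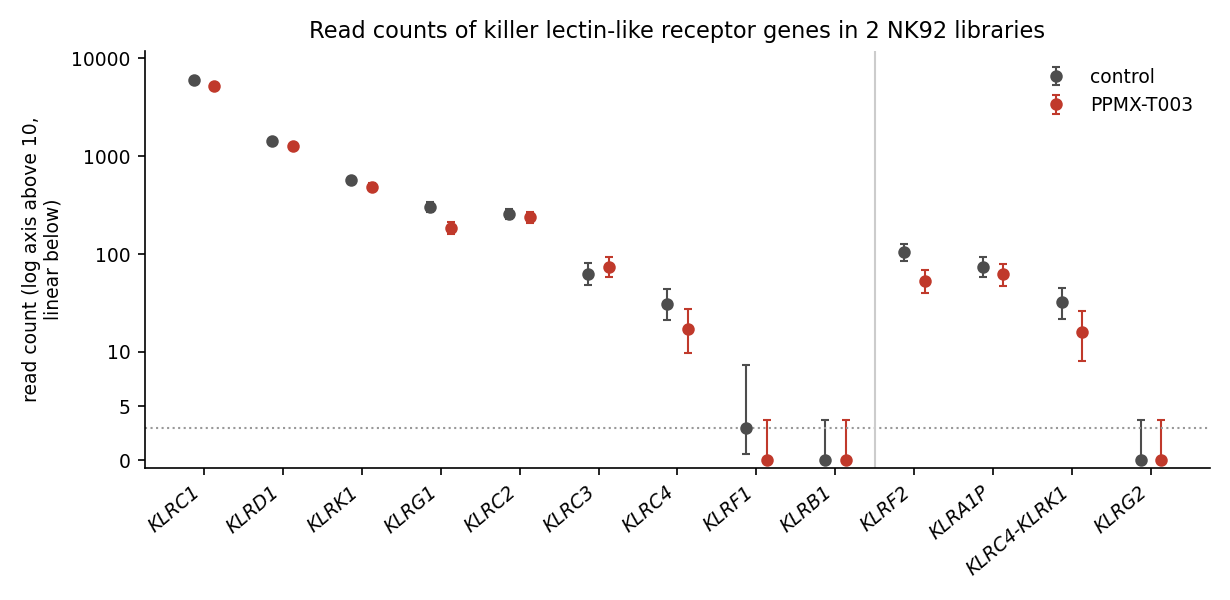
Read counts of the 9 members (left of the grey line) and of 4 further killer lectin-like receptor genes in the control (grey) and PPMX-T003 (red) libraries, on an axis that is logarithmic above 10 and linear below, with exact 95% Poisson intervals and a dotted line at 3 counts. KLRC1 leads with 5993 and 5195 counts, and KLRB1 lies at 0 in both libraries.

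Whether these receptor transcripts changed with PPMX-T003 was asked on the log2 CPM scale, with library factors from a trimmed mean of log ratios (TMM). None of the 7 tested members was at least 2-fold higher and none at least 2-fold lower, where 1.27% and 1.38% of all 13665 tested genes were. A 95% counting interval above 0 was found for 0 of the 7 (21.8% of all genes) and one below 0 for 2 of the 7 (23.9% of all genes), KLRC1 and KLRG1. The share below 0 among so few members is close to that of all genes. The median log2 fold change of the 7 was -0.089, against -0.0022 over all tested genes, with 5 lower and 2 higher. Once the trend of all genes with GC content and transcript length had been subtracted, the median was 0.0080, so no direction is given for the family as a whole.

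**Figure D3:**
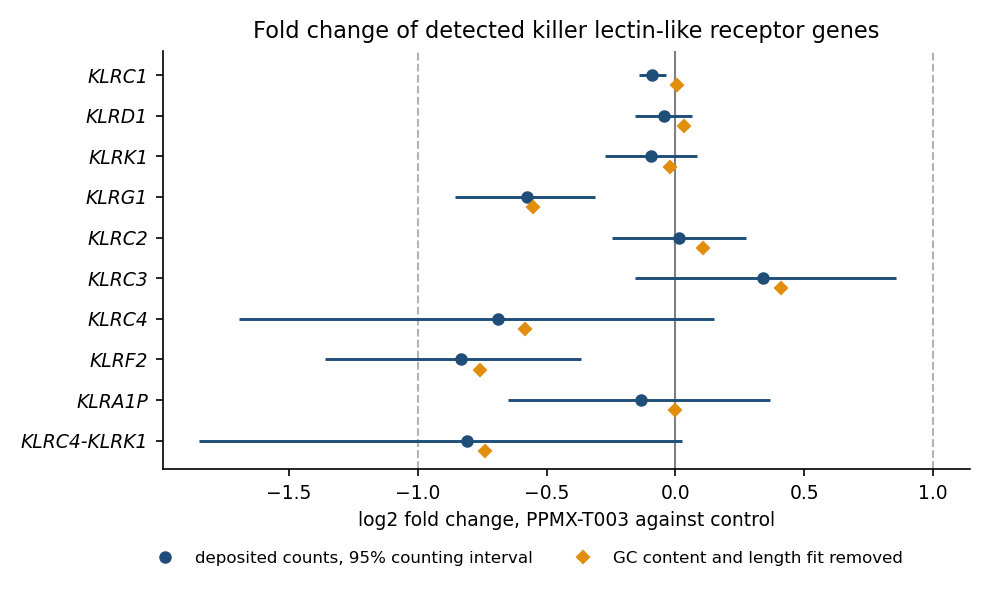
Log2 fold change (PPMX-T003 against control) of the detected members and 3 further genes of the family, as circles with 95% counting intervals and, as diamonds, after the trend with GC content and length was subtracted. Dashed lines mark 2-fold. KLRG1 lies at -0.58 and -0.55, while KLRC1 moves from -0.089 to 0.0080.

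KLRG1 was the member with the clearest difference. It went from 6.45 to 4.31 CPM, a log2 fold change of -0.58 (interval -0.85 to -0.31), and was lower under every scaling tried. With the trend subtracted it was at -0.55. Its GENCODE transcripts share no stretch of 100 bases with another gene. That was not checked on the gene model behind the counts. Its implied length in the control library, 1435 to 1845 nt, exceeds the longest protein-coding GENCODE transcript of 1335 nt. Of the 1794 genes with 0.5 to 2 times its counts, 1.95% had a lower fold change, and the central 95% of those genes ranged from -0.53 to 0.56. The difference of KLRG1 was therefore just outside the range of genes of similar abundance in these libraries, whose spread includes that between single dishes. KLRG1 was singled out among the 7 tested members by its difference, and the 1.95% makes no allowance for that choice.

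KLRC1 had a log2 fold change of -0.089 (interval -0.14 to -0.035), from 128 to 120 CPM. This was small beside the central 95% of the 3161 genes of similar counts, -0.30 to 0.22. The transcripts of KLRC1 have a median GC content of 38.8%, and fold changes between these libraries followed GC content. The 619 genes within 1 percentage point of it and with at least 200 counts had a median of -0.12. KLRC1 itself was at 0.0080, on the other side of 0, once the trend was subtracted.

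The remaining tested members had intervals that include 0. KLRD1 was at -0.046 (-0.16 to 0.064), or 0.033 with the trend subtracted. KLRK1 was at -0.094 (-0.27 to 0.083), or -0.021 with it subtracted, and KLRC2 at 0.012 (-0.25 to 0.27), or 0.11. The intervals of these 3 genes lie inside 2-fold, but they cover counting error only and do not bound a change between the conditions. The central 95% of genes of similar counts was wider. It ranged from -0.34 to 0.30 for KLRD1, from -0.42 to 0.43 for KLRK1 and from -0.53 to 0.56 for KLRC2. KLRC3, at 0.34 (-0.16 to 0.86), and KLRC4, at -0.69 (-1.70 to 0.15), rest on few reads, and for KLRC4 even a 2-fold decrease lies inside the interval.

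**Figure D4:**
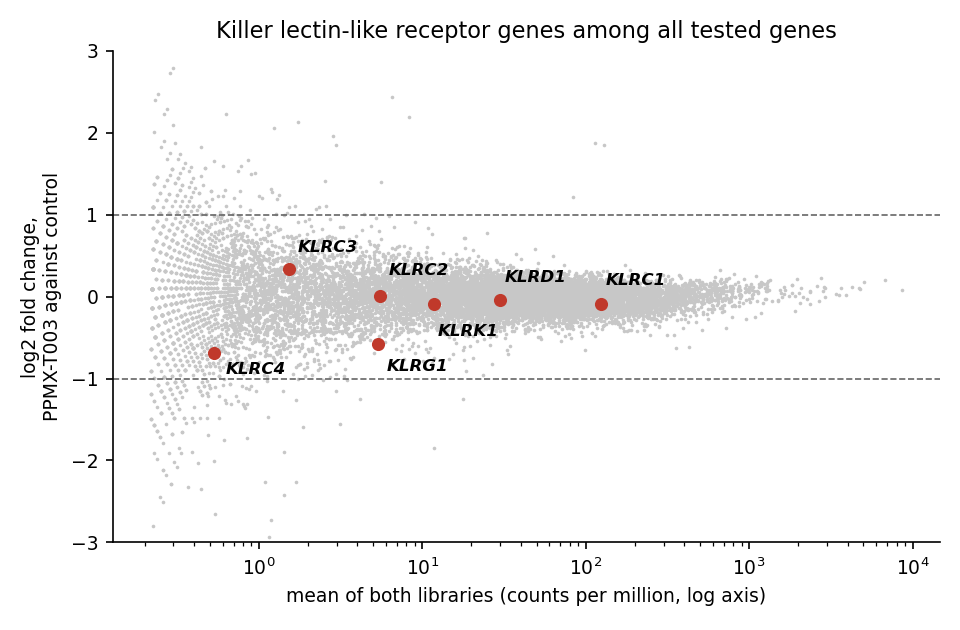
Log2 fold change (PPMX-T003 against control) of each tested gene (grey) against its mean level in CPM on a log axis, with the 7 tested members in red and dashed lines at 2-fold; 32 genes lie beyond the plotted range. The members sit inside the 2-fold lines, and KLRG1, at -0.58, lies near the lower edge of the genes at its level.

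Counts were also summed over genes that may exchange reads. A sum does not depend on how StringTie divided reads among its own genes, but it still does where a gene outside it shares sequence, as KLRC1 does with KLRC2, KLRK1 with KLRC4-KLRK1 and AC068775.1 with KLRC2 and KLRC3. KLRC1, KLRC2 and KLRC3 together had 6313 counts in the control and 5508 in the PPMX-T003 library (log2 fold change -0.080, interval -0.13 to -0.027), close to KLRC1 alone. KLRC2 and KLRC3 together went from 320 to 313 (0.085, -0.14 to 0.31), an interval that includes 0 as that of KLRC3 alone does. KLRC4, KLRC4-KLRK1 and KLRK1 together had 629 and 522 counts (-0.15, -0.32 to 0.018). KLRC4-KLRK1 alone had 32 and 16 counts (-0.81, -1.85 to 0.025), similar in number to KLRC4. With its counts added, KLRC4 went from 63 to 33, a log2 fold change of -0.78 with an interval from -1.47 to -0.19, which leaves out the reads that the readthrough gene may exchange with KLRK1, and KLRK1 from 598 to 505 (-0.13, -0.30 to 0.047). Of the 2054 genes with 0.5 to 2 times their counts, 12.3% had a lower fold change than KLRC4 and 9.35% a lower one than KLRC4-KLRK1, and the central 95% ranged from -1.36 to 1.35, so both lay inside the range of genes of similar abundance. Over all 6 genes from KLRC1 to KLRK1 the sum went from 6942 to 6030 (-0.086, -0.14 to -0.036). Most counts of this sum and of that of KLRC1, KLRC2 and KLRC3 are those of KLRC1, whose own difference crossed 0 once the trend was subtracted, a step that was not run on the sums.

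Of 4 further genes of the family, 3 were tested, none past 2-fold (1.27% of all tested genes were higher and 1.38% lower) and 1 with an interval below 0 (23.9% of all), and the median was -0.81. KLRF2, which encodes the receptor NKp65, had 104 counts in the control and 53 in the PPMX-T003 library (log2 fold change -0.83, interval -1.36 to -0.36), or -0.76 with the trend subtracted. It shares no stretch of 100 bases with another gene. Of the 1678 genes of similar counts, 2.26% had a lower value. The pseudogene KLRA1P had 74 and 62 counts (-0.13, -0.65 to 0.37), or -0.00098 with the trend subtracted. KLRG2, on chromosome 7, had 0 in both libraries. Among 14 neighbouring C-type lectin genes, a list that also holds KLRF2 and KLRA1P, 6 were tested, 6 lower (50.4% of all tested genes were lower), 3 with an interval below 0 (23.9% of all) and none past 2-fold, with a median of -0.14, and the other 8 had no more than 3 counts in either library. With the trend subtracted, 5 were lower and 1 higher, with a median of -0.027. CLEC2D had 3665 and 3212 counts (-0.073, -0.14 to -0.0045), CLEC2B 867 and 719 (-0.15, -0.30 to -0.0087) and the activation marker CD69 300 and 248 (-0.16, -0.41 to 0.090). With the trend subtracted, CLEC2D was at -0.025, CLEC2B at -0.029 and CD69 at -0.047.

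Partners of the receptors were measured in the same cells. Of 16 ligand genes, 6 were tested, with 1 interval above 0 (21.8% of all tested genes) and 3 below (23.9% of all), and a median of -0.066. HLA-E, the ligand of CD94 with NKG2A or NKG2C, had 22592 and 19990 counts and an FPKM of 178 and 168 (log2 fold change -0.059, interval -0.087 to -0.032). MICB, a ligand of NKG2D, had 4236 and 3760 counts (-0.055, -0.12 to 0.0088), and CLEC2D, which encodes the ligand of CD161, had an FPKM of 14 and 13. Of the other NKG2D ligands, MICA had 204 and 166 counts (-0.18, -0.48 to 0.12), ULBP1 8 and 9 and RAET1E 0 and 5. With the trend subtracted, HLA-E was at -0.080, MICB at -0.038 and MICA at -0.22, and the median of the tested ligand genes was -0.033. HLA-G had 0 counts in the control and 43 in the PPMX-T003 library, 15.5-fold higher against a floor of 3 counts. The lower bound of its counting interval was a log2 fold change of 3.60, which is less than 15.5-fold. HLA-G was the only listed ligand past 2-fold, a call that 1.27% of all tested genes met in this direction. HLA class I genes are near-identical over long stretches, so its count is uncertain. ULBP2, ULBP3, RAET1G and RAET1L, also NKG2D ligands, and the cadherins CDH1, CDH2 and CDH4, bound by KLRG1, had 0 counts in both libraries, as had CLEC2A.

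All 12 genes of adaptors and proximal signalling were tested, 4 with an interval above 0 (21.8% of all tested genes), 4 below (23.9%) and none past 2-fold (1.27% higher and 1.38% lower), with a median of 0.021. HCST, which encodes the adaptor of NKG2D, had 3554 and 3715 counts and an FPKM of 127 and 140 (0.18, 0.11 to 0.25). TYROBP, which encodes the adaptor of NKG2C, was far lower per length, with an FPKM of 7 and 8 from 205 and 219 counts (0.21, -0.069 to 0.49); it was named after its values were seen. The kinase gene ZAP70 had 8326 and 8922 counts (0.22, 0.17 to 0.26), and PTPN11, which encodes the phosphatase SHP-2 that binds inhibitory receptors, 15461 and 12601 (-0.18, -0.21 to -0.14). SH2D1A had an FPKM of 104 and 106 (0.049, 0.011 to 0.086). With the trend subtracted, HCST was at 0.060, TYROBP at 0.088, ZAP70 at 0.11, PTPN11 at -0.16 and SH2D1A at 0.040.

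Among 14 transcription factors tied to these genes in NK cells, 12 were tested, 3 with an interval above 0 (21.8% of all tested genes), 2 below (23.9%) and none past 2-fold (1.27% higher and 1.38% lower), with a median of -0.015, or 0.021 with the trend subtracted. TBX21 (T-bet) had 16085 and 17584 counts (0.25, 0.21 to 0.28), GATA3 652 and 727 (0.27, 0.12 to 0.43) and IKZF2 (Helios) 13394 and 10326 (-0.26, -0.30 to -0.22). ID2, at an FPKM of 201 and 209 (0.073, 0.038 to 0.11), and RUNX3, at 48 in both libraries (-0.0022, -0.043 to 0.038), were among the most abundant. After subtraction of the trend TBX21 was at 0.18, GATA3 at 0.25, IKZF2 at -0.16, ID2 at 0.038 and RUNX3 at -0.037. TCF7 and LEF1 had 0 counts in both libraries.

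The label of the line was checked against cell type markers, whose counts below stand against 21.8% of all tested genes with an interval above 0 and 23.9% with one below. All 14 NK markers were tested, 8 with an interval above 0 and 5 below, with a median of 0.091 and summed counts of 213782 and 214335. With the trend subtracted, 7 were higher and 7 lower, with a median of 0.011. NKG7, the most abundant, had an FPKM of 1356 and 1490, GZMB 781 and 929 (log2 fold change 0.27, 0.25 to 0.29) and IL2RB 282 and 301. With the trend subtracted, NKG7 was at 0.033, GZMB at 0.21 and IL2RB at -0.011, on the other side of 0 from its value of 0.11 without that step. GNLY was at 0.22 (0.16 to 0.29) and CD96 at -0.23 (-0.27 to -0.19), or 0.12 and -0.17 with the trend subtracted. FCGR3A, which encodes CD16 and was listed to be read at its own level, had 16 and 15 counts. Of 10 T cell markers, 5 had counts, summed to 23423 and 22511, and 4 were tested, 1 with an interval above 0 and 2 below (median -0.14). CD3E led with 19080 and 18942 counts (0.11, 0.078 to 0.14), or 0.083 with the trend subtracted. TRAC (1501 and 1312), CD28 (2252 and 1803) and CD6 (586 and 454) were also present, while CD3D, CD3G, CD5, CD8A and CD8B had 0 in both libraries. CD28 had a log2 fold change of -0.20, or -0.091 with the trend subtracted. CD6 was at -0.25 (-0.43 to -0.072), or -0.37 with the trend subtracted. Of 5 B cell markers, 3 had counts, summed to 185 and 90, and 2 were tested, 1 with an interval below 0 (median -0.54). PAX5 led with 169 and 78 counts (-0.98, -1.40 to -0.60), CD79A had 14 and 12, CD79B 2 and 0, and MS4A1 and CD22 had 0. With the trend subtracted, PAX5 was at -1.07, past 2-fold, and the median of the B cell markers was -0.64. Without that step 1.38% of all tested genes were at least 2-fold lower. Of 8 myeloid markers, 7 had counts, summed to 5125 and 4774, and 5 were tested, 1 with an interval below 0 (median -0.12). S100A9 led with 4699 and 4434 counts, followed by ITGAM (213 and 180) and S100A8 (176 and 126, -0.36, -0.71 to -0.027). CSF1R, with 22 and 9 counts, was past 2-fold (-1.02, -2.48 to 0.0037), a call that 1.38% of all tested genes met. In the other direction, CD33 had 13 and 18 counts (0.52, -0.52 to 1.74) and CD14 had 0 and 7. LYZ had 2 and 0 counts and MPO 0. The part of these marker differences in the lower KLRG1 counts was not tested.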

How the data were processed

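RNA of NK92 cells from 2 dishes was compared, 1 library per condition. The authors trimmed reads with Trimmomatic 0.38, mapped them with HISAT2 2.2.0 to hg38 and counted them with StringTie 2.1.3b, per their methods and the submitters' processing notes, which also name edgeR 3.17 (not used here). The read counts the authors deposited are whole numbers per gene of an NCBI annotation, unscaled; StringTie divides reads of overlapping or similar genes by an estimate. Their deposited FPKM and TPM hold whole numbers only, rounded by the authors, and each was handled as a score.

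Library factors were TMM values, trimming 30% of the genes by log ratio and 5% by mean level. A prior count of 2 entered log2 CPM. All 46427 genes were used, in Python 3.11.15 (statsmodels 0.14.6, scipy 1.17.1, pandas 2.3.3, numpy 2.4.6). The design had named an R package for this, which was replaced because the counts are written with commas between groups of digits. No count model was fitted and no p-value is given. A 95% Clopper-Pearson interval on the division of a gene's reads between the libraries was turned into a log2 ratio. Genes with at least 20 counts summed (13665) were tested, and 3 counts or fewer in a library were taken as not detected. The steps were tested on simulated data.

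Transcript lengths, GC content, exons and sequences came from GENCODE release 29 (GRCh38), not the annotation of the counts, and gene positions from RefSeq (GRCh38.p14). Coding sequences were aligned with MAFFT 7.526, and windows lie at least 10 aligned bases from a gap. GC content was known for 91.8% of tested genes, and a robust regression of fold changes on GC content, its square and log2 length used the 10156 of these that had 200 counts or more.

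The members and gene lists were chosen with earlier results of these data known. The genes named were all members, KLRC4-KLRK1 and, of each other list, those past 2-fold, the 3 most abundant by FPKM, the 3 whose interval bound nearest to 0 was largest, and markers at no more than 3 counts. FCGR3A was named as well, and TYROBP, MICA, ULBP1, RAET1E, CD14, CD33 and non-marker genes at 0 counts after their values were seen. Further listed genes enter only the counts, medians and sums of their lists, and the B cell list as first set held 1 further gene, which is not reported here. Alternatives were 3 other scalings, prior counts of 0.5 and 5, other count minimums, a 1.5-fold threshold, a 99% interval, deposited TPM with a pseudocount of 1, the fit removed, summed genes and, chosen after seeing the data, the median without KLRC4.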

Additional observations from a re-analysis of the deposited data

How the results depend on the processing

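No paired analysis was possible because both conditions have a single library, and for the same reason no replicate could be left out. Under the 3 other scalings and both other prior counts, each tested member kept its direction. KLRC1 and KLRG1 had intervals below 0 under each scaling and with a 99% interval. The library factors of all scalings lay between 0.995 and 1.005, so a change of scaling could move these values only slightly. Other count minimums cannot alter the interval of a gene that passes them, so they are no check on these 2 genes. The sums over genes that may exchange reads kept their direction under the 3 scalings, the only alternatives run on them.

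With the trend on GC content and length subtracted, KLRC1 was at 0.0080 in place of -0.089, and so was the median of the members, since KLRC1 is the middle member in both. KLRD1, whose interval includes 0, was then at 0.033 in place of -0.046, KLRK1 at -0.021 in place of -0.094 and KLRC2 at 0.11 in place of 0.012. Which of these 2 properties carries that shift was not tested. With the deposited TPM, KLRC1 was at -0.15, KLRD1 at -0.17 and KLRC2 at 0, where rounding to whole numbers limits low values. The median was -0.15 with TPM and -0.068 without KLRC4, a setting chosen after seeing the data.

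The number of members at least 2-fold lower was 1 with a minimum of 1 count, from KLRF1 at 3 and 0 counts, and 1 at 1.5-fold, from KLRC4. Of the 19076 genes with counts, 1448 were higher and 1033 lower with a minimum of 1 count. Of the 13665 tested genes, 538 were higher and 525 lower at 1.5-fold. With a minimum of 200 counts, 13 genes were higher and 8 lower. These moves follow from the genes tested and the threshold. Few counts limit KLRC3, KLRC4 and KLRC4-KLRK1, and KLRB1 and KLRF1 had too few to be tested.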
